A study of Macaca fascicularis with 5 samples.

Results

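Oligodendrocytes, the myelin-forming glia, arise from precursor cells that divide under PDGF signalling, migrate and then either stay as precursors or commit to myelination. Precursors carry the receptor PDGFRA and the NG2 proteoglycan (gene CSPG4) on their surface. OLIG1, OLIG2 and SOX10 are transcription factors of the whole lineage, and GPR17 and BCAS1 mark cells on the way from precursor to myelinating oligodendrocyte. PCDH15 and LHFPL3 are membrane protein genes whose transcripts mark precursors in brain cell surveys. The optic tract enters the dorsal lateral geniculate nucleus (dLGN), the thalamic relay of vision, as myelinated axons, so that the tissue holds both precursors and myelinating cells. These 9 genes were taken from a fixed list by their symbol, out of 20576 symbols in the deposited count table, and the estimated counts of all transcripts with the same symbol were summed.

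The libraries come from the LGN of 5 young cynomolgus monkeys (Macaca fascicularis), all given as 3 months old. The control group has 3 untreated libraries (Control-307, Control-317, Control-331), and the deprived group has 2 libraries (Deprivated-316 and Deprivated-326) from monkeys whose left eye was sutured from month 1 to month 3, which is the monocular form-deprivation model of amblyopia. The methods of the study instead place collection 3 months after the suture. Titles give the left side for Control-317 and both deprived libraries and the right side for Control-307 and Control-331, while the control descriptions say that both sides were mixed. The animal numbers in the titles differ, and nothing else states that the libraries are from separate animals, so that p-values measure the spread between these libraries.

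The libraries differed in ways that the groups do not account for, and cortical excitatory neuron markers differed along the groups. Totals were 7391844 to 12966019 estimated counts, with the deprived libraries the 2 smallest. Control-317 was less like its own group (r of log2 CPM 0.849 with Control-307 and 0.872 with Control-331, which had 0.952 with each other; these are across 14317 tested genes, which are not independent replicates). A list of 10 striatal neuron markers had its lowest mean in Control-317, at 4.54 log2 CPM (CPM are counts scaled to a common, TMM-normalized library total). Its means were 6.60 in Deprivated-326, 7.003 in Deprivated-316, 8.64 in Control-331 and 8.77 in Control-307. The dopamine receptor gene DRD1 is on this list. The study reports DRD1 RNA in monkey LGN and DRD1 staining of cells and fibres in mouse dLGN. How much of the striatal marker RNA came from dLGN cells was not tested. The 7 thalamic relay neuron markers ran from 3.91 in Control-307 to 6.60 in Control-317. The 6 tested cortical excitatory neuron markers had means of 0.66 to 1.44 without deprivation and of 6.20 and 5.02 with it. For 5 of these 6 genes both deprived libraries lay above all control libraries, against 15.2% of all genes. This difference runs along the compared groups and cannot be told apart from deprivation. The part of these marker lists in the results below was not tested. The group means printed with the study also follow another division of the libraries than the deposited labels. It places Control-317 with Deprivated-326 and matched the means of 290 of 290 transcripts, where the division by the labels matched 19 (relative tolerance 0.001 or absolute tolerance 0.01). Comparisons below follow the deposited labels, and values under the other division are given beside each lineage gene, and each list of lineage or signal genes, whose direction it turns.

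On the FPKM scale, which corrects for transcript length and so allows levels to be compared between genes, OLIG2 had the highest mean level over the 5 libraries at 33.0 FPKM, with a range of 16.3 to 49.8. SOX10 followed with a mean of 28.6 FPKM (19.1 to 37.5), BCAS1 with 22.2 (8.22 to 40.7) and PDGFRA with 21.0 (19.1 to 24.3). These 4 levels cannot be ordered beyond their spread, since OLIG2 lay above SOX10 in 3 of 5 libraries, SOX10 above BCAS1 in 3 and BCAS1 above PDGFRA in 2. PDGFRA exceeded LHFPL3 (mean 11.5 FPKM, 7.32 to 14.5) in all 5 libraries, and LHFPL3 exceeded PCDH15 in all 5. At the low end were PCDH15 with a mean of 3.16 FPKM, CSPG4 with 2.56 and GPR17 with 2.39, and CSPG4 lay above GPR17 in 2 of 5 libraries. By group, OLIG2 was at 41.1 ± 7.64 FPKM (SD, n = 3) in the control and 20.7 ± 6.28 (SD, n = 2) in the deprived libraries, and PDGFRA at 21.8 ± 2.19 and 19.6 ± 0.80.

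OLIG1, the close relative and chromosomal neighbour of OLIG2, was listed at 0 estimated counts and 0 FPKM in all 5 libraries. Its single annotated transcript therefore gave no value to compare, and a count of 0 allows up to 0.231 CPM in the deepest and 0.406 CPM in the shallowest library (3 counts of the total, counting error only). Of all 20576 symbols, 2798 were listed at 0 in all libraries, and none of 17 widely expressed genes looked at was among them. Whether OLIG1 was absent from the RNA or missed in the quantification was not tested.

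The comparison of deprived with control libraries asks whether closing an eye during early life is accompanied by a difference in lineage gene RNA in the geniculate. Of the 9 genes, 8 passed the filter on low counts and were tested with edgeR's quasi-likelihood test, with Benjamini-Hochberg adjustment over all 14317 genes. None of the 8 passed at an adjusted p under 0.05, where 0.0% of all genes did, and 1 of the 8 (OLIG2) had an unadjusted p under 0.05, where 9.76% of all genes did (5.69% as higher and 4.07% as lower). DESeq2, which called 2.21% of all genes (1.75% as higher and 0.453% as lower), and edgeR's exact test, which called 1.56% (1.38% and 0.189%), also called 0 of the 8. There were 3 positive and 5 negative log2 fold changes, with a median of -0.08 beside -0.06 over all genes tested, of which 44.9% had a positive and 55.1% a negative value. Under the division printed with the study the median of the 8 was 0.17, beside -0.01 over all genes. The groups did not overlap for OLIG2 alone, where they did not overlap in 30.8% of all genes (15.5% on the lower side). In bulk tissue, fewer cells of a type and less RNA per cell cannot be told apart.

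**Figure D1:**
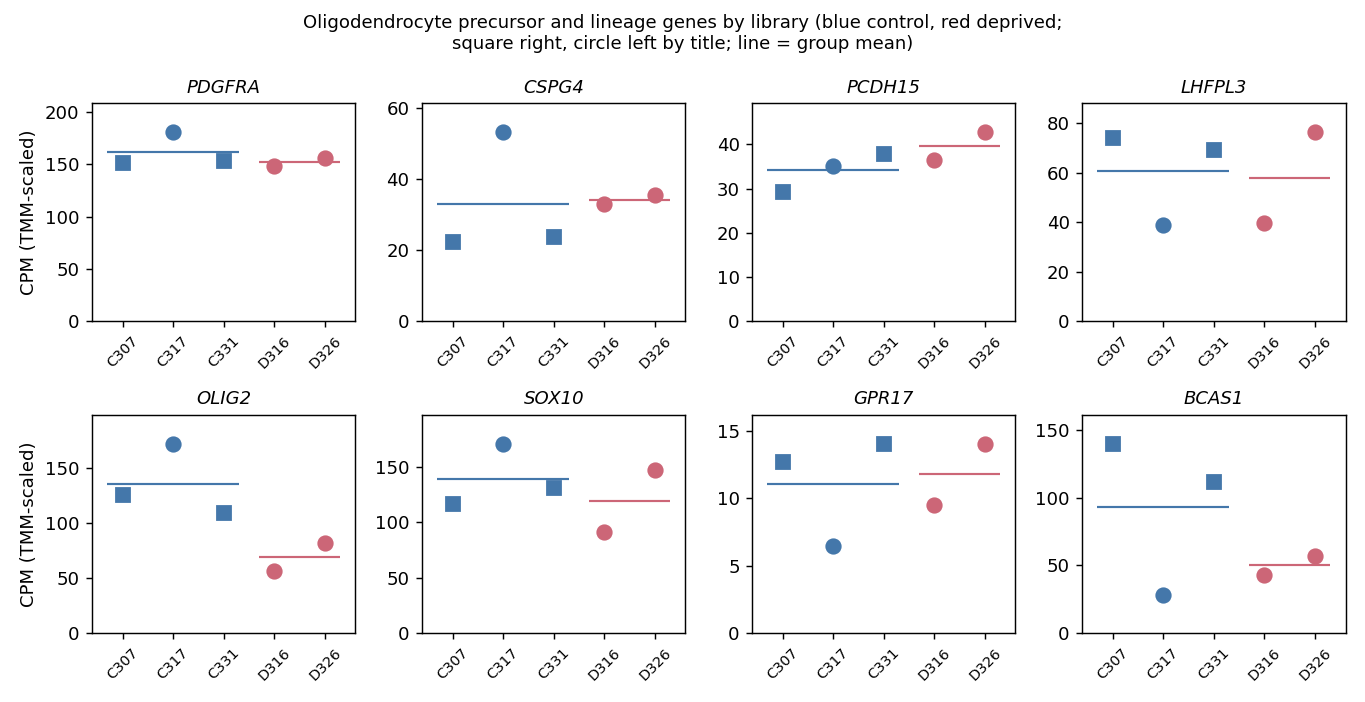
CPM (vertical axis from 0) of the 8 detected lineage genes in each library (horizontal axis, C for Control and D for Deprivated). Squares are right and circles left by title, and lines are group means. OLIG2 is the gene whose deprived libraries, at 56.3 and 82.3 CPM, both lie under all control libraries.

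PDGFRA, the receptor through which PDGF drives precursor division, was the steadiest of the lineage genes. Untreated libraries read 151 (Control-307), 181 (Control-317) and 153 CPM (Control-331), and deprived libraries 148 (Deprivated-316) and 156 CPM (Deprivated-326), the order in which values are given from here on, so that the groups overlapped. The log2 fold change was -0.09 (standard error 0.19, edgeR adjusted p = 0.915), and the 95% interval of the fold ran from 0.678 to 1.304. Under the other division of the libraries the value was 0.16. The highest library was 1.22 times the lowest, and 93.9% of 1353 genes of like abundance had a larger SD of log2 CPM over the libraries.

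CSPG4, the NG2 proteoglycan, is also made by pericytes of the vessel wall. Control-307 and Control-331 held 22.4 and 23.7 CPM, Control-317 held 53.3 CPM, and the deprived pair held 33.0 and 35.5 CPM. Deprived libraries thus lay between the control libraries, and Control-317 was the highest. The log2 fold change was 0.05 (standard error 0.44, edgeR adjusted p = 0.982). It was 0.57 without Control-317 (adjusted p = 0.0793) and -0.64 with side by title as a term in the fit. All right-titled libraries are control libraries, so the fit with side sets Control-317 alone against the deprived pair. Under the division printed with the study the log2 fold change was 0.75 (edgeR unadjusted p = 0.0467, adjusted p = 0.698). PDGFRB, a pericyte marker, was also highest in Control-317 at 50.4 CPM, against 23.6 to 32.1 CPM in the other libraries. The list of 10 mural cell markers as a whole did not follow, and its control sum was lowest in Control-317. Summed CPM were 240, 215 and 229.5 in the control and 168 and 180 in the deprived libraries, with ANPEP at 0 throughout. The part of mural cells in the CSPG4 values was not tested.

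PCDH15, a protocadherin best known from the tip links of inner ear hair cells, measured 29.3, 35.2 and 37.9 CPM without and 36.5 and 42.9 CPM with deprivation. The groups overlapped, and deprived over control came to 0.22 on the log2 scale (standard error 0.21, edgeR adjusted p = 0.783). LHFPL3, of the LHFPL family of tetraspan membrane proteins, measured 73.9, 38.9 and 69.2 CPM without and 39.6 and 76.6 CPM with deprivation. One library of each group, Control-317 and Deprivated-316, was low, and the log2 fold change was -0.06 (standard error 0.41, edgeR adjusted p = 0.974).

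OLIG2, the basic helix-loop-helix factor that specifies the lineage, gave the largest difference of the set. Levels were 126, 172 and 109 CPM without deprivation, against 56.3 and 82.3 CPM with it. Every deprived library lay below every control library. The log2 fold change was -0.97 (standard error 0.30, 95% interval -1.72 to -0.22, unadjusted p = 0.0205, adjusted p = 0.432 in edgeR), so that the difference did not pass the test over all genes. Leaving out each library in turn gave log2 fold changes of -1.25 to -0.72, none of which passed. The value was -0.76 without Control-317 (adjusted p = 0.0834) and -1.31 with side by title as a term (adjusted p = 0.0525), fits in which 10.1% (6.46% as higher) and 5.43% (3.97% as higher and 1.45% as lower) of all genes were called. Under the division printed with the study it was 0.39 (adjusted p = 0.827), on the other side of 0.

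SOX10, the HMG-box factor that acts with OLIG2 and turns on myelin genes, reached 117, 171 and 131 CPM without and 91.5 and 147 CPM with deprivation. The lowest library was Deprivated-316, and Deprivated-326 lay within the control range. Its log2 fold change was -0.22 (standard error 0.30, edgeR adjusted p = 0.849), and it was 0.079 without Deprivated-316 and 0.49 under the division printed with the study.

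GPR17, a G protein-coupled receptor present for a short time in committed precursors, was the least abundant detected gene of the set by counts. The untreated values of 12.7, 6.48 and 14.1 CPM enclosed the deprived values of 9.52 and 14.1 CPM to the rounding given, with Control-317 lowest. The log2 fold change was 0.09 (standard error 0.43, edgeR adjusted p = 0.964), and -0.25 under the division printed with the study.

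BCAS1, which marks newly forming oligodendrocytes and is kept in myelin, varied most over the libraries. Control-307 and Control-331 reached 140 and 112 CPM, the deprived pair 43.2 and 57.3 CPM, and Control-317 27.9 CPM. The highest library was 5.01 times the lowest, and 5.49% of 2222 genes of like abundance had a larger SD of log2 CPM. By the labels the log2 fold change was -0.89 (standard error 0.68, edgeR adjusted p = 0.704). Without Control-317 it was -1.32 (standard error 0.20, adjusted p = 0.0270), the 1 call among the lineage genes in that fit, where 3.68% of all genes were called as lower. With side by title as a term, which sets Control-317 alone against the deprived pair, it was 0.85, on the other side of 0. The 2 high libraries are those titled as right, and the summed CPM of the striatal markers went the same way (7206, 493 and 6570 without and 2059 and 1696 with deprivation). Side, tissue makeup and deprivation cannot be told apart for this gene.

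**Figure D2:**
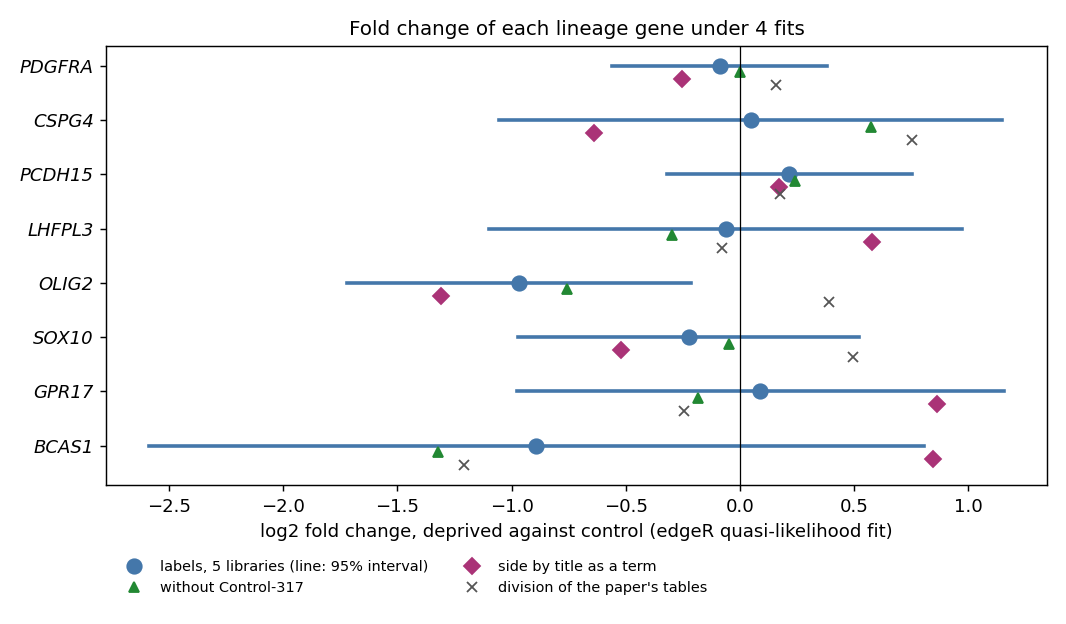
Log2 fold change of deprived against control (horizontal axis) for the 8 tested lineage genes (rows). Blue points and lines are the fit by the labels with its 95% interval, and the other symbols are 3 alternative fits. The interval reaches 0 for every gene but OLIG2, and every gene but PCDH15 changes sign in at least 1 alternative. With side as a term, Control-317 alone is set against the deprived libraries.

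Ratios of counts within a library do not depend on how libraries are scaled, and lengths cancel when one ratio is followed from library to library. The ratio of OLIG2 to PDGFRA counts was 0.832, 0.950 and 0.713 without and 0.380 and 0.528 with deprivation. OLIG2 to SOX10 was 1.08, 1.01 and 0.837 without and 0.616 and 0.559 with it. In both ratios the groups did not overlap, and Control-317 lay with the other control libraries. SOX10 to PDGFRA, by contrast, spanned 0.772 to 0.945 without and was 0.617 and 0.944 with deprivation. These ratios were formed after the OLIG2 values had been seen and share the OLIG2 counts, so that they are given as a description with no test.

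For BCAS1 the ratio to PDGFRA counts spread from 0.154 in Control-317 to 0.927 in Control-307. Its ratio to MBP, the gene of myelin basic protein, was 0.0556 to 0.0786 in the 5 libraries, and the lower values were those of the 3 libraries titled as left. MBP itself measured 1815, 475 and 1424 CPM without and 776 and 1032 CPM with deprivation, so that both genes had their lowest value in Control-317. The ratio of BCAS1 to MOG, another myelin gene, was less even, from 0.0557 in Control-317 to 0.301 in Control-307. CSPG4 to PDGFRA was 0.294 in Control-317 and 0.148 to 0.228 in the other libraries.

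**Figure D3:**
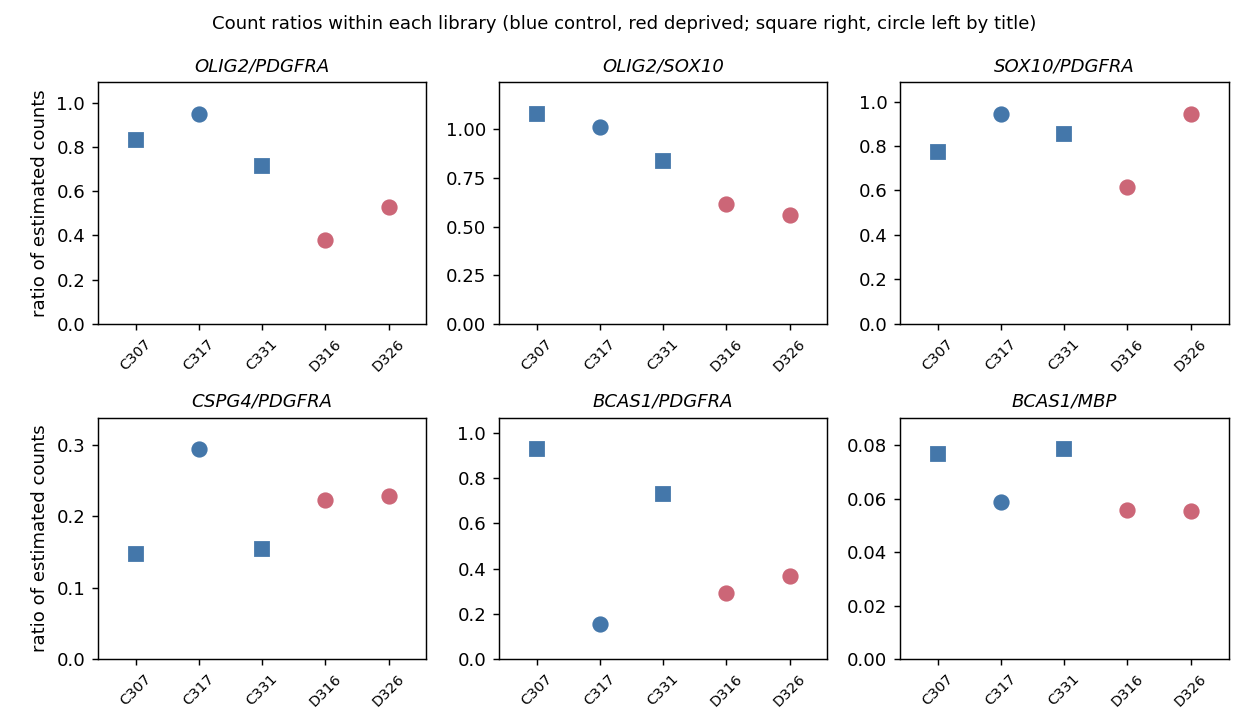
Ratio of estimated counts of 2 genes within each library (vertical axes from 0, libraries on the horizontal axis, squares right and circles left by title). The ratio of OLIG2 to PDGFRA is 0.713 to 0.950 in the control and 0.380 and 0.528 in the deprived libraries, while that of SOX10 to PDGFRA overlaps between the groups.

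The 9 genes have 27 annotated transcripts, of which 3 were at 0 in all libraries, 20 were tested and 14 held at least 10% of their gene's counts. With edgeR fitted over 33469 transcripts, none of the 20 passed, where 0.0% of all did, and BCAS1 X3 and OLIG2 X1 had an unadjusted p under 0.05, where 6.41% of all did. Counts of overlapping variants of a gene were split by estimation, so that their values are not independent of each other.

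OLIG2 has a curated transcript and a predicted variant X1, and both were lower in every deprived than in every control library, as 26.8% of transcripts did not overlap in either direction. X1, with 84.8% of the OLIG2 counts, had 103.5, 154.6 and 88.0 CPM in the control and 47.6 and 65.9 CPM in the deprived libraries (log2 fold change -1.06 ± 0.34 SE, adjusted p = 0.651 in edgeR). The curated transcript had 22.0, 17.4 and 21.3 CPM in the control and 8.72 and 16.4 CPM in the deprived libraries (log2 fold change -0.73 ± 0.41 SE, adjusted p = 0.847 in edgeR). X1 made up 80.1% to 89.9% of OLIG2 counts in every library, so that the difference in the gene total was spread over both transcripts.

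PDGFRA was nearly all 1 transcript, with X1 at 90.6% to 96.5% of its counts. The low LHFPL3 totals came mainly with variant X1, which had 7.11 CPM in Deprivated-316 and 11.9 CPM in Control-317 against 31.9 to 36.4 CPM in the other libraries. LHFPL3 X2 was also lowest in Control-317, at 27.0 CPM. It had 32.5 CPM in Deprivated-316 and 32.8 to 42.9 CPM in the other libraries. X1 was 17.8% of LHFPL3 counts in Deprivated-316 and 30.7% in Control-317, against 43.1% to 52.5% in the other libraries.

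The PCDH15 total was steady, but its variants were not. Variant X3 had 229 counts in Control-317 and 83.1 in Deprivated-316 against 13.3 to 20.2 in the others, which is 52.0% and 30.5% of PCDH15 counts against 4.70% to 6.22%. Variants X4 and X1 took most of the rest. One library of each group carried more X3, and the log2 fold change of X3 was -0.08 (standard error 1.40, edgeR adjusted p = 1.0) by the labels and 2.04 without Control-317 (adjusted p = 0.428).

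For BCAS1, variant X7 held 63.1% to 78.0% of the counts, with 109, 21.8 and 78.7 CPM without and 27.6 and 36.2 CPM with deprivation. Control-317 was lowest for X7, and the groups overlapped. The rare variants X2 and X3 were chosen for mention after their values were seen. X2 had 23.6 counts in Control-307, 26.3 in Control-331 and 0 in the other libraries, and X3 had 20.3 and 15.4 counts in the deprived libraries and 0 in all control libraries. X3 was 6.28% and 3.66% of BCAS1 counts where it was present (edgeR unadjusted p = 0.0206, adjusted p = 0.610). For GPR17, variant X1 had 39.8 to 85.9 counts and X2 10.1 to 61.4, and X3 was at 0 in the control libraries and at 4.79 and 14.3 counts in the deprived ones, too few to be tested.

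**Figure D4:**
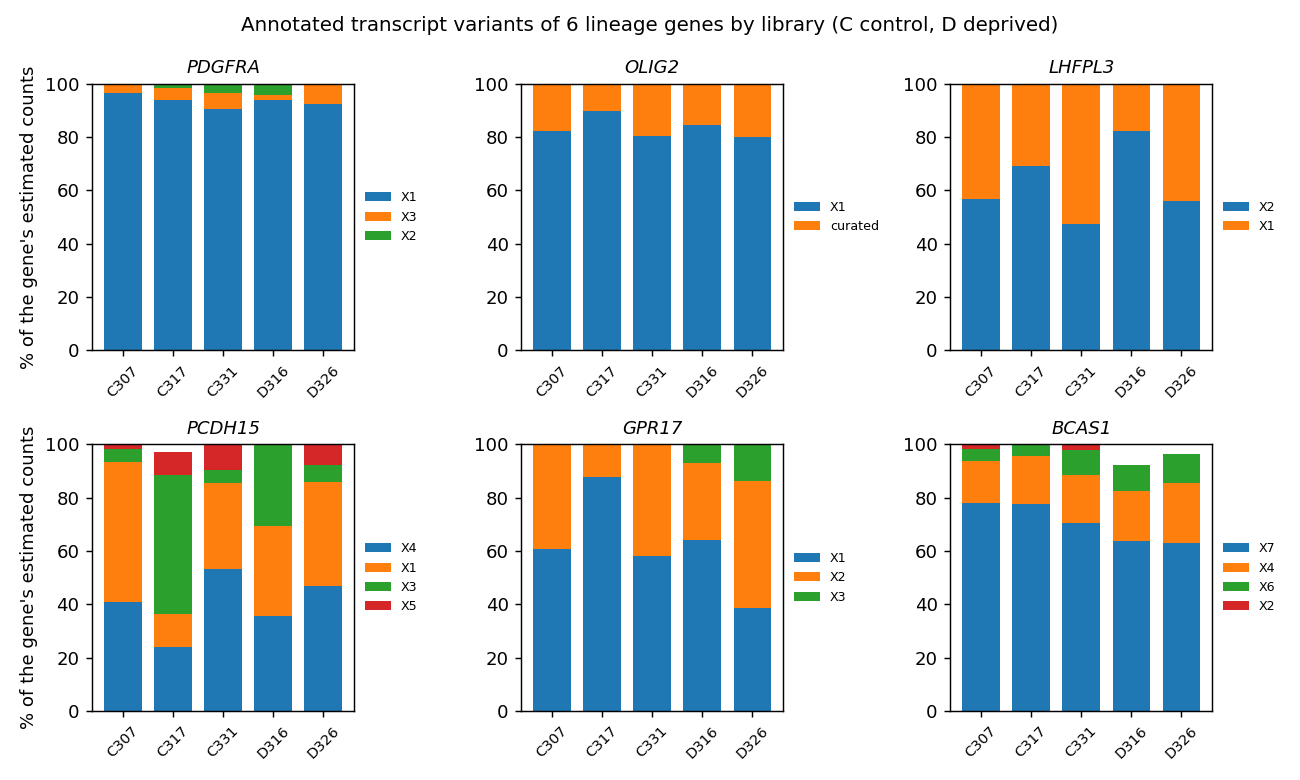
Share of each gene's estimated counts (vertical axis, percent) held by its annotated variants in each library (horizontal axis), for the 6 lineage genes with more than 1 transcript. Variants under 1% of the gene are left out, and "curated" is the curated OLIG2 entry. PCDH15 X3 is 52.0% in Control-317 and 30.5% in Deprivated-316, while PDGFRA is at least 90.6% X1 in every library.

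Other precursor genes, from a list of 20 of which 19 were tested, went both ways, with 8 positive and 11 negative log2 fold changes and a median of -0.0028. None passed edgeR's test, 2 had an unadjusted p under 0.05, against 9.76% of all genes, and deprived libraries lay wholly above the control libraries for 3 and wholly below them for 4, against 15.2% and 15.5% of all genes. NEU4, a sialidase, had 28.3, 68.1 and 33.0 CPM in the control and 16.8 and 20.1 CPM in the deprived libraries (log2 fold change -1.23 ± 0.45 SE, adjusted p = 0.491 in edgeR). C1QL1, a secreted protein of the C1q family, had 8.38, 13.1 and 12.1 CPM in the control and 5.36 and 6.55 CPM in the deprived libraries (log2 fold change -0.91). SOX8, a relative of SOX10, had a log2 fold change of -0.58, and SOX5, a factor that in mice holds back differentiation, had one of 0.47. In all 4 genes the groups did not overlap. Without Control-317 the list's median was 0.15, with 2 of 19 genes called as higher and 1 as lower, against 6.46% and 3.68% of all genes, and under the division printed with the study it was 0.20.

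Genes of newly formed oligodendrocytes lay lower for 8 of 9 members (median -0.43 on the log2 scale), where 55.1% of all genes had a negative value. MYRF, the factor that starts myelin gene transcription, had 125, 188 and 146 CPM in the control and 91.1 and 121 CPM in the deprived libraries (log2 fold change -0.53, edgeR adjusted p = 0.579). ZNF488, a zinc finger factor that in the mouse promotes differentiation, had a log2 fold change of -0.69. The groups did not overlap for 2 of the 9 members, MYRF and ZNF488, both on the lower side, against 15.5% of all genes. Values for SIRT2, a deacetylase of oligodendrocytes, and ITPR2, a calcium release channel, were -0.43 and -0.20. No member passed edgeR's test, and 0 of 9 had an unadjusted p under 0.05, against 9.76% of all genes. TCF7L2 stands on this list but is also a thalamic neuron gene, and it spread from 22.0 CPM in Control-307 to 476 CPM in Control-317. The list's median was -0.11 without Control-317 and 0.30 under the division printed with the study.

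Mature myelin genes were on the lower side for 18 of 18 members, with a median of -0.69, where 55.1% of all genes were. The groups did not overlap for 7 of the 18, against 15.5% of all genes on the lower side. None passed edgeR's test, and 4 had an unadjusted p under 0.05, against 4.07% of all genes as lower. ASPA, the enzyme that cleaves N-acetylaspartate, had 66.1, 36.3 and 59.9 CPM in the control and 18.6 and 30.7 CPM in the deprived libraries (log2 fold change -1.13 ± 0.38 SE, adjusted p = 0.454 in edgeR). MOG and CNP, of the myelin surface and of non-compact myelin, had log2 fold changes of -0.91 and -0.75, and GAL3ST1, which makes sulfatide, had one of -0.73. The list's mean was 6.57 log2 CPM in Deprivated-316, 7.40 in Deprivated-326 and 7.44 to 7.75 in the control libraries, so that most of the difference lay in 1 library. Its median was -0.35 without Deprivated-316, and 0.11 under the division printed with the study. The ratio of MOG to PDGFRA counts was 2.57 to 3.08 in the control and 1.14 and 2.0 in the deprived libraries.

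**Figure D5:**
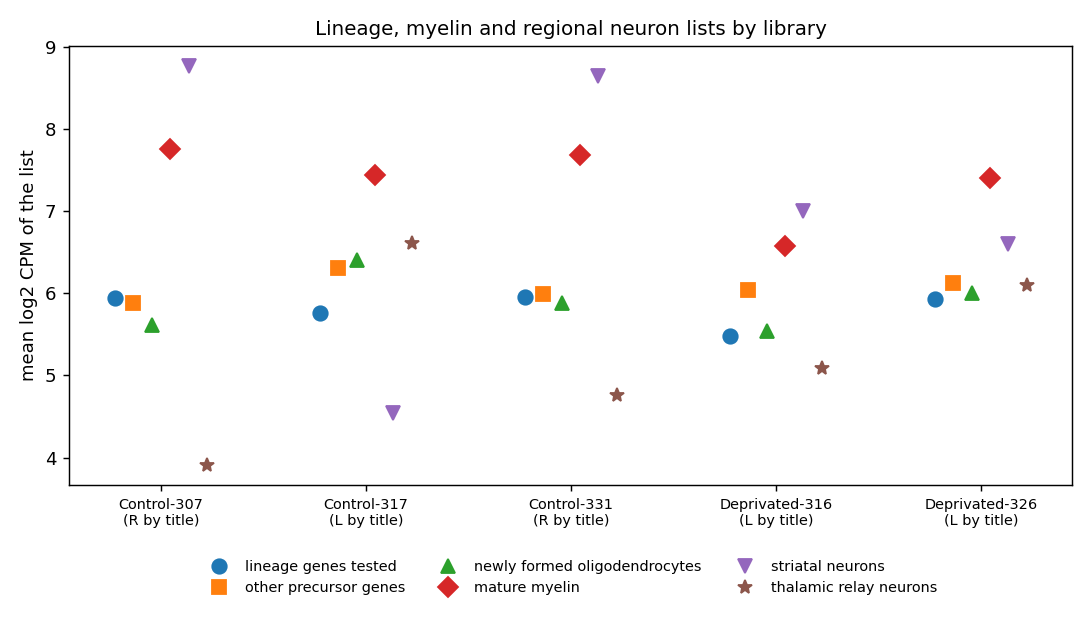
Mean log2 CPM (vertical axis, not starting at 0) of the tested lineage genes and 5 marker lists in each library (horizontal axis, with side by title). Lineage genes run from 5.48 to 5.96, while striatal markers run from 4.54 in Control-317 to 8.77 in Control-307 and thalamic relay markers from 3.91 to 6.60.

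Receptors, ligands and inhibitors that act on precursors, a list of 26, gave 12 positive and 14 negative log2 fold changes, with a median of -0.16. Calls were 0 in edgeR's quasi-likelihood test, where 5 had an unadjusted p under 0.05 against 9.76% of all genes, and 2 in DESeq2, against 2.21%. Without Control-317 the median was 0.12, with 2 called as higher (ID2 and LINGO1) and 2 as lower (FGFR3 and SHH), against 6.46% and 3.68% of all genes, and under the division printed with the study it was 0.15. The PDGF ligands were among those without a difference beyond the spread, PDGFA with a log2 fold change of 0.32, PDGFB with 0.10, PDGFC with -0.29 and PDGFD with 0.59. ID2, an inhibitor of basic helix-loop-helix factors, had 24.0, 10.1 and 17.8 CPM in the control and 78.2 and 60.7 CPM in the deprived libraries (log2 fold change 2.01 ± 0.39 SE, adjusted p = 0.297 in edgeR). ID2 was thus above all control libraries in both deprived libraries, and its adjusted p was 0.0219 without Control-317. LINGO1, an inhibitor of oligodendrocyte differentiation that neurons also make, overlapped between the groups, with 64.7, 277 and 77.0 CPM without and 381 and 272 CPM with deprivation. FGFR3, a growth factor receptor that astrocytes also make, had 177, 217 and 174 CPM in the control and 98.4 and 107 CPM in the deprived libraries (log2 fold change -0.88 ± 0.20 SE, adjusted p = 0.354 in edgeR, 0.0274 without Control-317). PTCH1, the Hedgehog receptor, had a log2 fold change of -1.02. SMO, which transmits that signal, had 7.65 to 8.90 CPM in the control libraries and 0 and 1.91 CPM in the deprived ones.

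Precursors are the main dividing cells of the postnatal brain, and cycle genes differed in level. PCNA had 20.4 to 27.9 CPM and MCM6 16.1 to 24.3 CPM over the 5 libraries, while MKI67, CCNB1 and CDK1 were scarce. Of 14 proliferation genes 10 were tested, with 4 positive and 6 negative log2 fold changes, a median of -0.09 and 0 calls. MKI67 was at 0.64 to 2.87 CPM in the control and at 1.74 and 1.501 CPM with deprivation. CCNB1, a mitotic cyclin, had a log2 fold change of 1.10 and CDK1, its kinase partner, one of -1.63, and both were under 5 CPM in every library. RRM2, of nucleotide synthesis, had one of -1.02, and MCM6, of the replication helicase, one of 0.29.

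Markers of other cells also stood at unequal levels in the groups. Microglia markers had a median log2 fold change of -0.70 over 10 genes, with summed levels of 455 to 594 CPM in the control and 394.5 and 396 CPM in the deprived libraries. Neuron markers had a median of 0.98 over 7 genes, with sums of 1747 to 4309 CPM in the control and 3633 and 3781 CPM in the deprived libraries. Astrocyte markers had one of -0.18 over 8 genes, with sums of 4056 to 4670 and of 4188 and 4140 CPM. Mural cell markers gave -0.33 over 9 tested genes. Fibroblast markers, of cells that can also carry PDGFRA, gave -0.23 over 6 genes, with sums of 107 to 142 and of 123 and 114 CPM. None of these genes passed edgeR's test. Deprived libraries lay wholly below the control libraries for 6 of 10 microglia, 4 of 9 mural, 2 of 8 astrocyte and 1 of 6 fibroblast genes, against 15.5% of all genes. They lay wholly above them for 4 of 7 neuron and 1 of 6 fibroblast genes, against 15.2%. A shift to lower values was thus not particular to the myelin genes. Without Control-317, 3 of 10 microglia and 1 of 9 mural cell genes were called as lower, against 3.68% of all genes. In that fit 4 of 7 neuron genes were called as higher, against 6.46%. It also called 10 of 10 striatal and 1 of 18 mature myelin genes as lower, and 4 of 6 cortical excitatory genes as higher. Their part in the lineage gene values was not tested.

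The 5 genes whose profile over the 5 libraries was closest to the mean profile of the lineage genes, among 10595 genes at a mean log2 CPM of at least 3, were ZNF804A, CWF19L1, ALG6, FBXL5 and TMEM56. Their root mean square difference from it was 0.031 to 0.037 on the log2 scale. ZNF804A, the closest, had 28.0, 25.6 and 28.9 CPM in the control and 21.7 and 28.5 CPM in the deprived libraries. In that mean profile Deprivated-316 lay 0.33 below the mean of the libraries on the log2 scale, Control-317 0.05 below it and the other libraries 0.11 to 0.15 above it.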

How the data were processed

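Reads from LGN RNA were filtered by the authors with fastp 0.18.0, aligned to Macaca_fascicularis_5.0 with HISAT2 2.1.0 (the submitters' processing notes list Bowtie2 2.2.8) and assembled and quantified against the annotation by StringTie 1.3.4. The deposited values are estimated counts, which are not whole numbers, and FPKM, fragments scaled by transcript length and library total, as made by the authors for 62655 transcripts. Estimated counts were summed per symbol, rounded, filtered with filterByExpr, TMM-normalized and tested in R 4.3.3 by quasi-likelihood F-tests of edgeR 4.0.16. Standard errors are the log2 fold change over the root of F. CPM use the TMM-normalized total and log2 CPM a prior count of 2. FPKM of a gene are sums over its transcripts.

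The members and lists were chosen with earlier results of these data known. Named are all members, their variants with at least 10% of the gene's counts, up to 4 genes per list with the smallest p, and the 5 genes of closest profile. PDGFRB, MBP, TCF7L2, MKI67, PCNA, PDGFA, PDGFB, PDGFC, PDGFD, LINGO1 and SHH stand outside this rule and were chosen after their values were seen. All 9 symbols matched the RefSeq gene table of T2T-MFA8v1.1, another assembly, so no coordinates or sequences are given.

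Tried in their place were DESeq2 1.42.0 and its size factors, the edgeR exact test, log2(FPKM + 1) and log2(FPKM + 0.1) in limma 3.58.1, no filter, side by title as a term, the division printed with the study, and leaving out each library. List medians under these were added after the data were examined. In a simulation at the dispersions estimated here, quasi-likelihood F-tests found 0, 13, 29 and 38 of 50 genes changed by a log2 fold of 1, 2, 3 and 4. They made 11 false calls among 14117 unchanged genes, and found 0 changed transcripts of 50 at each size. For genes the exact test found 4, 37, 42 and 46 with 57 false calls, and DESeq2 found 6, 38, 40 and 46 with 76 false calls. Columns of the authors' own comparisons were not used.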

Additional observations from a re-analysis of the deposited data

How the results depend on the processing

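At 3 against 2 libraries of 7391844 to 12966019 counts, a log2 fold change of 1, the size seen for OLIG2, lies below what the quasi-likelihood test recovered on simulated counts, and no transcript change was recovered at any size, so that 0 calls do not show that values are alike. No paired analysis was possible because the groups share no replicate numbers.

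Counts of genes called, 0 by the labels, were 197 as higher and 27 as lower in edgeR's exact test, 263 and 68 in DESeq2, 569 and 208 with side by title as a term, 1 and 0 in limma on log2(FPKM + 1), and 0 to 905 and 0 to 515 when 1 library was left out, the highest without Control-317. Lineage genes called were 0 to 1 when 1 library was left out (BCAS1 without Control-317). DESeq2 called 1045 transcripts, against 0 by edgeR's quasi-likelihood test, in which 2145 had an unadjusted p under 0.05. Without a deprived library, the lone other one is assumed to vary like the control libraries. Of 104 log2 fold changes of lineage genes under the alternatives 16 changed sign and 1 came to pass the test, and of 112 of their variants 21 changed sign. The causes were not tested. Under the division printed with the study, values that changed sign were 0.16 for PDGFRA, 0.39 for OLIG2, 0.49 for SOX10 and -0.25 for GPR17, and among variants -0.32 for GPR17 X2, -0.057 for LHFPL3 X2, 0.45 for OLIG2 X1, -0.11 for PCDH15 X4, -0.36 for PCDH15 X1, 1.149 for PCDH15 X3, 0.14 for PDGFRA X1 and 0.48 for the SOX10 transcript. With side by title as a term they were -0.64 for CSPG4, 0.85 for BCAS1 and 0.58 for LHFPL3. In that fit Control-317 alone is set against the deprived libraries. Leaving out 1 library gave -0.14 to 0.00048 for PDGFRA, -0.17 to 0.57 for CSPG4, -0.59 to 0.079 for SOX10, -0.20 to 0.34 for GPR17 and -0.60 to 0.34 for LHFPL3, and among variants -0.21 to 0.525 for the CSPG4 transcript, -0.49 to 0.75 for GPR17 X2, -0.097 to 0.30 for LHFPL3 X2, -1.94 to 0.29 for LHFPL3 X1, -0.089 to 0.66 for PCDH15 X4, -1.43 to 2.04 for PCDH15 X3 and -0.64 to 0.039 for the SOX10 transcript. PCDH15 stayed positive under every alternative, from 0.097 to 0.33.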
